A study of Mus musculus with 7 samples.

Results

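The genes described here are 10 markers of fibro-adipogenic progenitors or fibroblasts: Pdgfra, Ly6a, Thy1, Islr, Mgp, Smoc2, Tcf7l2, Gsn, Dcn and Lum. They were followed in the gene expression arrays of 7 mouse myoblast samples. The platform annotation paired 9 of the 10 genes with 21 of the 45037 probe sets that measure transcripts, and paired no probe set with Ly6a. The markers were chosen by intensities measured here, in view of their levels and of their differences between Hmga2 KO and wild type, so those values are given as a description. Counts of calls in that comparison stand beside those of all probe sets, and nothing is read from them. The comparison of male with female Hmga2 KO samples was not used for the list and was tested.

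The 3 wild type samples (Hmga2 +/+) were from female C57BL/6 mice. The 4 Hmga2 KO samples (Hmga2 -/-) were from the same strain, replicates 1 and 3 from males and replicates 2 and 4 from females. No sample was treated, and the titles name the replicates biological. Neither the age and number of mice behind a sample, the way the myoblasts were isolated nor the kind of deletion is given in the sources used here. The labels of Hmga2 KO replicate 2 give it a pair of different animal numbers, while its genotype and sex are the same throughout. Sex therefore differs between the genotypes, and a difference from wild type seen in male Hmga2 KO samples alone cannot be told apart from sex.

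Fibro-adipogenic progenitors are mesenchymal cells that lie between the fibres of skeletal muscle. They secrete matrix and signals that support muscle stem cells during repair, and can give rise to fibroblasts and fat cells. Myoblasts are the committed muscle precursors that stop dividing and fuse into fibres. Some of the markers are also expressed outside the fibro-adipogenic lineage, so a signal from one of them does not by itself name a cell type. In bulk RNA of this kind, fewer cells of a type and less RNA per cell cannot be told apart. Hmga2 encodes a chromatin protein whose AT-hooks bind AT-rich DNA.

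Intensities are in arbitrary units on a linear scale, with a median of 150 on every array and a minimum of 33.2 to 36.7. On its 3 bright probe sets Hmga2 lay between 6406 and 12800 in wild type samples and between 44.2 and 104.5 in Hmga2 KO samples, so each library matched its genotype label. The myoblast label was met as well. Pax7, which marks muscle stem cells, lay between 5188 and 6765 in the 7 samples, and Myod1, the determination factor of the lineage, between 14290 and 15770. Genes of differentiation were high too. Myog lay between 13700 and 21080, and 14 of 15 genes of terminal muscle differentiation exceeded the array median in all 7 samples.

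Promoter sequences were held for 4 of the markers (7 start sites) in RefSeq, assembly GRCm38.p6. Those of Pdgfra and Islr are shown because these genes were highest in different samples, and those of Tcf7l2 because its start sites differ widely in base composition. Each run holds the 250 bases before the start site, 5′ to 3′ on the gene's strand. Capitals mark matches, on either strand, to the TATA box TATAAA, the CCAAT box, the GC box GGGCGG, the E-box CAGCTG bound by myogenic factors among others, or the AT-rich word AATATT.
Pdgfra, chr5:75152001-75152250, plus strand: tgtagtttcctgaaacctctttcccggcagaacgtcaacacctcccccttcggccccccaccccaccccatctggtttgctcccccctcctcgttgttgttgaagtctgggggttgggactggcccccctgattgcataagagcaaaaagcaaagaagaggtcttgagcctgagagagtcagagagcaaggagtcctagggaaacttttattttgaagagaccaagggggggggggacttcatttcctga
Islr, chr9:58158555-58158804, minus strand: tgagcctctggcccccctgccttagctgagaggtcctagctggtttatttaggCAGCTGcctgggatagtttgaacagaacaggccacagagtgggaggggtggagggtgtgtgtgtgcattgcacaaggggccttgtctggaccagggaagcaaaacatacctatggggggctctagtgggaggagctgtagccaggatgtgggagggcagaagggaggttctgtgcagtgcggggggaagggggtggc
Tcf7l2, chr19:55741560-55741809, plus strand: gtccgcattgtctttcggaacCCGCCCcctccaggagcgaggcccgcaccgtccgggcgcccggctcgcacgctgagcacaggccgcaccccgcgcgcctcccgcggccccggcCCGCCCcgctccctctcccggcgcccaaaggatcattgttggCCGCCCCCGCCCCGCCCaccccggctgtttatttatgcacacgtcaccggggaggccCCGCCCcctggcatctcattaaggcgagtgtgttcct
Tcf7l2, chr19:55895071-55895320, plus strand: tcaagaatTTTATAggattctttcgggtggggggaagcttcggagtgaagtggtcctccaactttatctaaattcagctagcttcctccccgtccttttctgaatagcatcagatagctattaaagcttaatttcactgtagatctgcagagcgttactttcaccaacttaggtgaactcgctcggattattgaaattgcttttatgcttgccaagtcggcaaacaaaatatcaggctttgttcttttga

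The Pdgfra stretch held none of these words and was 45.6% A or T, against a median of 47.6% over 32851 promoters. Islr had 1 E-box, at position -197 from the start site, in a stretch of 40.4% A or T. The E-box word occurs in 13.0% of all promoters of this length. The upstream Tcf7l2 start had 27.2% A or T and 6 GC boxes, of which 3 ran together with a base shared by a pair of them. The other Tcf7l2 start had 59.2% A or T and 1 TATA word, at position -242. By comparison, 32.7% of promoters hold the GC box word, 12.4% the TATA word, 33.8% the CCAAT word and 6.17% the AT-rich word. These matches describe the letters and say nothing of binding.

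The deposited values carry no detection call, so background was read in the 5 female samples from genes of the Y chromosome (Eif2s3y, Kdm5d and Uty). Those 9 probe sets lay between 33.9 and 58.2, and 58.2 was taken as the ceiling of background. A wider ceiling of 112 was the 95th percentile of 44 probe sets of olfactory receptors, most of which are silent outside the nose. A probe set was called bright where it exceeded the array median of 150 in all 7 samples. An intensity depends on a probe's affinity as well as on its transcript, so the classes place probe sets against background and do not rank genes.

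By these measures 11 of the 21 probe sets were bright, 10 were intermediate, and 0 lay at or under 58.2 in all 7 samples. With the ceiling at 112, 6 of the intermediate probe sets lay within background in every sample, and 4 remained intermediate. The bright ones belonged to Islr, Mgp, Tcf7l2 and Gsn. Pdgfra, Thy1 and Smoc2 were intermediate on their brightest probe set, and both Dcn and Lum stayed under 112 throughout. Just inside the bright class was Tcf7l2 (1425229_a_at), at 406 in its lowest sample, and just outside it was Pdgfra (1421917_at), at 133 in its lowest sample.

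**Figure D1:**
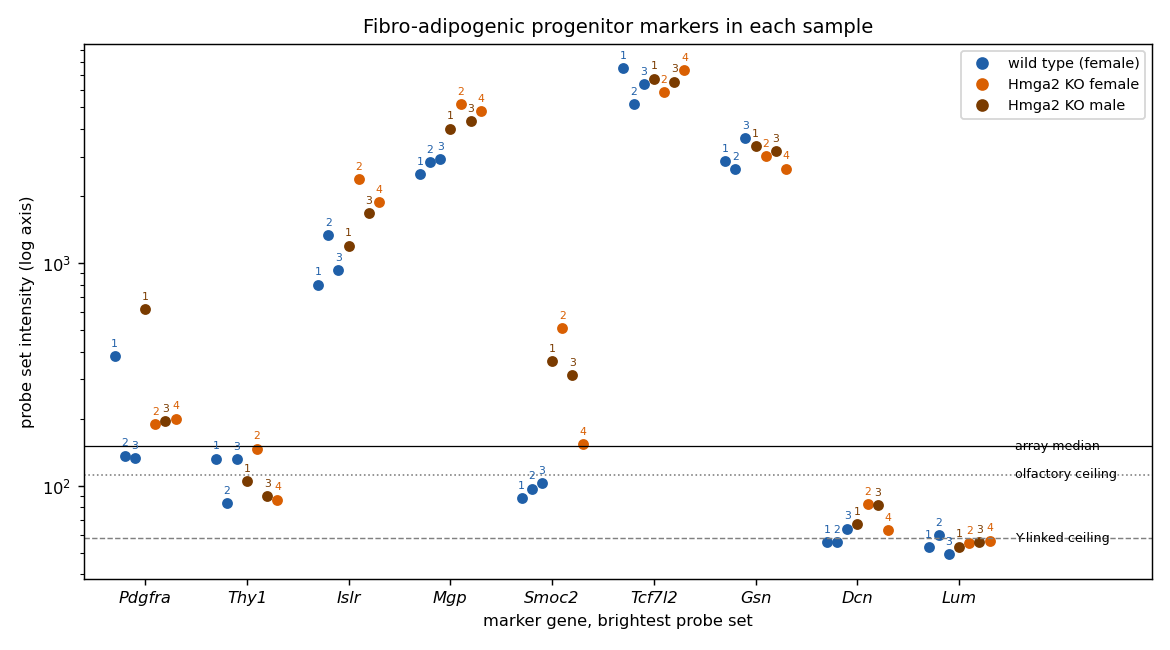
Intensity of the brightest probe set of each marker (log axis) in 3 wild type and 4 Hmga2 KO samples, 1 point per sample with its replicate number, against the array median of 150 and the background ceilings of 112 and 58.2. Islr, Mgp, Tcf7l2 and Gsn lie above the median in all 7 samples, Smoc2 crosses it between the genotypes, and Dcn and Lum stay under 112.

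Of the cell surface markers, Pdgfra, the receptor for platelet-derived growth factor that is used to sort fibro-adipogenic progenitors, set 2 samples apart. Its brightest probe set (1421917_at) read 383, 137 and 133 in wild type replicates 1 to 3. In Hmga2 KO replicates 1 to 4 it read 620, 189, 195 and 200. Replicate 1 was the highest of each genotype, and the other 5 samples lay between 133 and 200. Hmga2 KO exceeded wild type by 0.45 on the log2(intensity + 1) scale (SE 0.48). The value became 0.95 without wild type replicate 1 and 0.03 without Hmga2 KO replicate 1, so leaving out either one alone moved it. With both left out, a choice made after the data were seen, it was 0.53 (SE 0.11), near the value with all samples.

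The other Pdgfra probe sets were dim, at 59.6 to 83.9 (1438946_at) and 45.3 to 59.7 (1421916_at). Both were also highest in Hmga2 KO replicate 1, but on both wild type replicate 1 was the lowest of the 7 samples, unlike on the brightest probe set. Thy1, a glycoprotein anchored in the membrane of fibroblasts and other mesenchymal cells, read 132, 83.5 and 131 in wild type samples. In Hmga2 KO samples Thy1 read 105, 147, 89.6 and 86.7. The groups overlapped widely, with a difference of -0.11 (SE 0.22). Ly6a, which encodes the surface antigen Sca-1, has no value here.

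The secreted markers held the widest differences between the genotypes. Mgp encodes matrix Gla protein, an inhibitor of calcification that is carried in the matrix. It read 2495, 2841 and 2914 in wild type samples, a mean of 2750 ± 224 (SD, n = 3). In Hmga2 KO samples it read 4004, 5167, 4336 and 4819, a mean of 4581 ± 515 (SD, n = 4). Every Hmga2 KO sample was above every wild type sample. The difference was 0.73 (SE 0.12), or 1.66-fold. Under the alternatives run it stayed between 0.66 and 0.86.

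Smoc2, a secreted calcium-binding matrix protein that modulates growth factor signalling, had the largest difference of the 9 measured markers. On its brighter probe set (1415935_at) wild type samples read 88.2, 97.0 and 103, all under the wider background ceiling of 112. The Hmga2 KO samples read 362, 510, 313 and 154, all above it. Means were 95.9 ± 7.26 (SD, n = 3) and 335 ± 146 (SD, n = 4). The groups did not overlap, and the spread within Hmga2 KO was the wider one, with the female replicates 2 and 4 at its ends. The difference was 1.67 (SE 0.32), or 3.19-fold. Wild type levels lie near background and its correction is not known, so the size of this fold is uncertain. The other probe set (1431362_a_at) read 79.7, 94.1 and 98.2 against 150, 188, 142 and 120, without overlap and with the same order of samples within Hmga2 KO. Its difference was 0.71 (SE 0.15).

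Islr, a secreted or membrane-bound protein with leucine-rich repeats and an immunoglobulin domain, read 799, 1329 and 931 in wild type samples. Its Hmga2 KO values were 1196, 2385, 1678 and 1880. Means were 1019 ± 276 (SD, n = 3) and 1785 ± 493 (SD, n = 4), and the groups overlapped only because Hmga2 KO replicate 1 lay under wild type replicate 2. The difference was 0.80 (SE 0.24). The centred profiles of Islr and Mgp over the samples had a root mean square difference of 0.24 (log2). Pairs among Gsn, Tcf7l2, Dcn and Lum, which varied little, lay at 0.21 to 0.28, with 5 of them closer than Islr and Mgp. Pdgfra lay 1.02 from Islr and 1.03 from Smoc2, the widest gaps of any pair of markers.

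Dcn and Lum encode decorin and lumican, small leucine-rich proteoglycans that bind collagen fibrils and are abundant in fibroblasts. On its brightest probe set (1441506_at) Dcn read 56.0, 55.7 and 64.2 in wild type samples and 67.2, 82.5, 81.8 and 63.0 in Hmga2 KO samples. The second Dcn probe set (1449368_at) lay between 59.6 and 72.7, and Lum between 49.1 and 60.0. All of these values lay under 112, so their differences of 0.32 (SE 0.12), 0.09 (SE 0.10) and 0.04 (SE 0.10) are between signals near background. Both genes lie side by side on chromosome 10 in the RefSeq order, followed by Kera and Epyc, which encode proteoglycans of the same family. Kera lay between 42.1 and 56.9 and Epyc between 44.5 and 57.6, so this row of genes was dim as a whole. Btg1, on the other side of Dcn beyond a predicted gene, read 8388 to 10320.

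Among the intracellular markers, Tcf7l2, a transcription factor of Wnt signalling that marks connective tissue fibroblasts of muscle, was bright on all 4 probe sets. The brightest (1429428_at) read 7476, 5183 and 6369 in wild type samples and 6719, 5860, 6516 and 7348 in Hmga2 KO samples, a difference of 0.07 (SE 0.14). The other 3 probe sets lay between 406 and 1502 with differences of 0.30 to 0.31 (SE 0.23 to 0.28). All 4 were lowest in wild type replicate 2. That sample also had the highest ratio of the 3′ to the 5′ control probe set, a sign of RNA degradation or labelling, at 1.94 for Actb (1.61 to 1.74 elsewhere) and 1.52 for Gapdh (1.22 to 1.36 elsewhere). Without it the differences of the 4 probe sets were between -0.07 and 0.08, and without wild type replicate 1, the highest wild type sample, between 0.20 and 0.62. The part of RNA quality in these values was not tested.

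Gsn encodes gelsolin, which severs and caps actin filaments and also has a plasma form. Its brightest probe set (1436991_x_at) read 2862, 2633 and 3625 in wild type samples and 3339, 3017, 3169 and 2650 in Hmga2 KO samples. Altogether 5 of its 6 probe sets were bright, each highest in wild type replicate 3, with differences of -0.06 to 0.02. The sixth (1456568_at) was dim, at 38.5 to 63.8. Of the bright ones, 4 carry the suffix that marks probes shared with other transcripts, so part of their signal may not be Gsn.

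**Figure D2:**
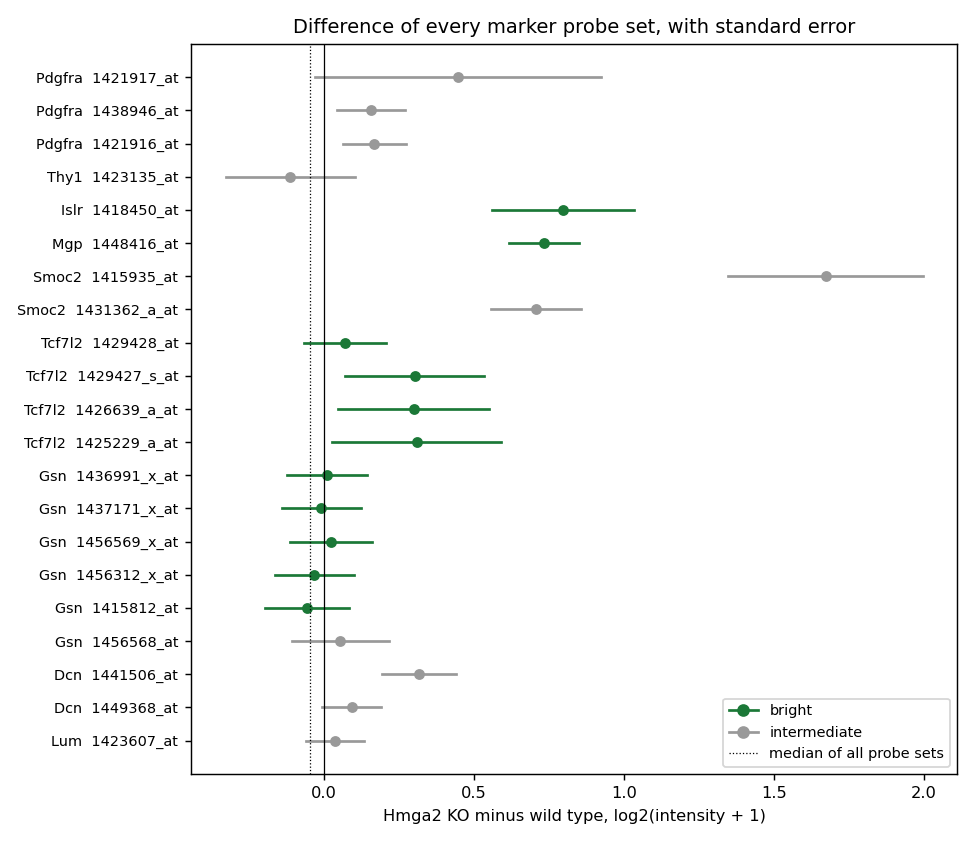
Difference of Hmga2 KO (n = 4) from wild type (n = 3) for the 21 probe sets of 9 markers, in log2(intensity + 1), with bars of 1 SE from limma. The points of Smoc2, Islr and Mgp lie farthest to the right, at 0.71 to 1.67, the 6 Gsn points lie between -0.06 and 0.05, and the brightest Pdgfra probe set has the widest bar. The dotted line is the median of all probe sets.

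Over the 21 probe sets, 17 were higher on average in Hmga2 KO and 4 lower, with a median difference of 0.16 beside -0.05 over all probe sets. Taken 1 probe set per gene, 8 of the 9 markers were higher, with a median of 0.32 beside -0.07 over 18193 genes. The genotypes did not overlap for 3 of the 21 probe sets, all higher in Hmga2 KO, beside 2.77% of all probe sets. Over the brightest probe sets 2 of 9 did not overlap in that direction, beside 2.37% of genes. After Benjamini-Hochberg adjustment over all probe sets, limma called 0 of the 21 and 0.0178% of all probe sets (8). At an unadjusted p under 0.05 there were 5 of the 21 and 5236 of all 45037 probe sets.

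The lowest of the 7 samples was a wild type sample for each of the 9 brightest probe sets, beside 33.8% of all genes. It was replicate 1 for 3 of them, replicate 2 for 4 and replicate 3 for 2. Hmga2 KO replicate 2, a female, was the highest sample for 5 of the 9 (Thy1, Islr, Mgp, Smoc2 and Dcn), against 9.43% of all genes. Hmga2 KO replicate 1, a male, was the highest for Pdgfra alone. The markers were chosen in view of their genotype differences, so these shares describe the choice and nothing is read from them. Dcn and Lum also lay under 112 throughout, and Thy1 was lower on average in Hmga2 KO.

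The tested comparison, male with female Hmga2 KO samples (2 against 2, with the spread pooled over all 7 samples), called 0 of the 21 probe sets in limma, beside 0.0511% of all probe sets (23). None of the 21 had an unadjusted p under 0.05 either, against 2398 of all probe sets, and their lowest adjusted p in limma was 0.938. Males were higher on 14 of the 21, with a median difference of 0.13 beside -0.03 over all probe sets. Every Tcf7l2 probe set and every bright Gsn probe set was among the 14, so the count repeats genes. On their brightest probe sets Pdgfra, Smoc2, Tcf7l2, Gsn and Dcn were higher in males, and Thy1, Islr, Mgp and Lum lower. Pdgfra was higher in males by 0.84 (SE 0.58), with a 95% interval from -0.49 to 2.16, and this came down to 0.0053 without Hmga2 KO replicate 1. Islr averaged 1437 in males and 2133 in females, a difference of -0.58 (SE 0.26) whose interval, -1.16 to 0.0043, just reached 0. Mgp was lower in males by a smaller amount, at 4170 against 4993 (difference -0.26, SE 0.14). Smoc2 averaged 337 in males and 332 in females. The 95% intervals of these differences held 0. The genotypes were also compared in the 5 females alone (3 wild type and 2 Hmga2 KO). There Mgp was higher in Hmga2 KO by 0.86 (SE 0.13) and Islr by 1.09 (SE 0.22). The Smoc2 probe sets were higher by 1.54 (SE 0.41) and 0.73 (SE 0.20), while Pdgfra differed by 0.03 (SE 0.41). The markers were chosen in view of their genotype differences, so these values are a description.

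A wider list of 40 genes expressed by fibroblasts or fibro-adipogenic progenitors was set beside the markers, and 39 of them were measured. Of these, 11 were bright, 27 intermediate and 1 (Fap, a surface protease of activated fibroblasts) at background in all samples. With the ceiling at 112, 14 of the 39 lay within background. Hmga2 KO was higher on average for 24 and lower for 15, with a median difference of 0.05 beside -0.07 over all genes, and 30 of the 39 lay above that median of all genes. The genotypes did not overlap for 0 genes in the higher direction and for 3 in the lower direction, beside 2.37% and 9.29% of all genes. None was called by limma over all probe sets, and 3 of the 39 had an unadjusted p under 0.05, beside 5236 of all 45037 probe sets. The summed intensity of the list, to which a few very bright probe sets such as those of Serpinf1 and Col3a1 contribute most, was 37454 to 39656 in wild type and 36794 to 40330 in Hmga2 KO samples.

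Among the 27 genes of the list that exceeded 58.2 in all samples, the differences at the upper end were those of Svep1, a large adhesion protein of the matrix (0.54, SE 0.15), the collagen gene Col1a2 (0.41, SE 0.85), the metalloprotease gene Adam12 (0.40, SE 0.18) and Pdgfrl (0.39, SE 0.31). At the lower end were Col1a1 (-0.71, SE 1.05), the mesenchymal transcription factor gene Prrx1 (-0.24, SE 0.18), and the matrix genes Mfap4 (-0.22, SE 0.09) and Fbln1 (-0.21, SE 0.21). Apart from Mfap4, all of these overlapped between the genotypes. The fibrillar collagen genes Col1a1 and Col1a2, whose chains form type I collagen, varied far more among replicates than between genotypes. Col1a1 read 2891, 734 and 552 in wild type samples and 2189, 69.0, 1061 and 1052 in Hmga2 KO samples. For Col1a2 the readings were 538, 157 and 207 against 1921, 101, 362 and 200.

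As with the brightest Pdgfra probe set, wild type replicate 1 and Hmga2 KO replicate 1 were the highest pair among the 7 samples for both collagen genes. This order was noticed in the values and then counted. It held for 7 of the 39 genes (17.9%), namely Col1a1, Col1a2, Fbln2, Cd34, Cd248, Serpinf1 and Tnfaip6, against 3.53% of all genes. The count includes the collagen genes in which the order was noticed. For Serpinf1 the lead was slight (12590 in both samples, beside 12470 in wild type replicate 3). Tnfaip6 lay within background, at 41.9 to 58.9. Among the 9 markers it held for Pdgfra alone. Cd34, a sialomucin of progenitor cells, read 174, 101 and 159 in wild type samples and 527, 93.8, 114 and 110 in Hmga2 KO samples. Cd248, a surface glycoprotein of stromal cells, read 197, 88.35 and 74.2 in wild type samples against 270, 59.8, 104.5 and 94.8 in the Hmga2 KO samples. Mgp, Islr and Smoc2 did the opposite in wild type replicate 1, where each was at its lowest of the 7 samples.

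**Figure D3:**
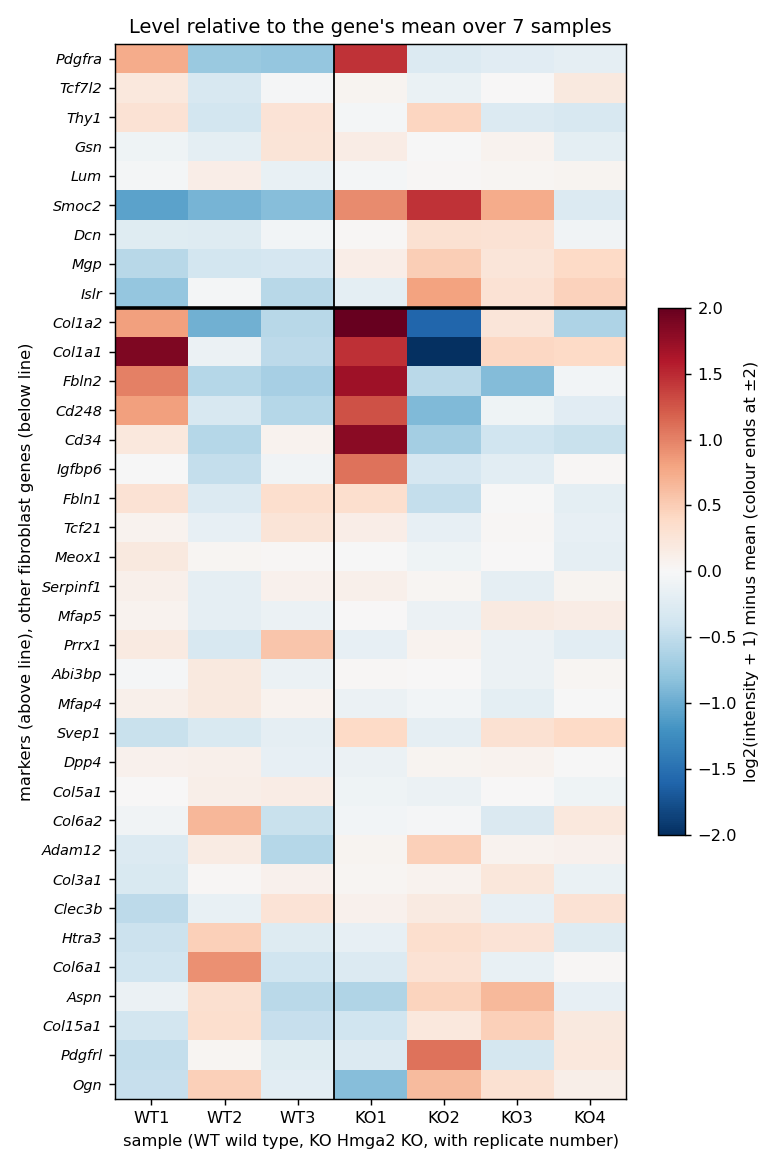
Level of the 9 measured markers (above the black line) and of the 27 other fibroblast genes that exceeded 58.2 in all 7 samples (below it), as log2(intensity + 1) minus the gene's mean over the samples, with colour ending at 2 units either way. Red marks samples above the gene's mean: Pdgfra shares its red cells in both replicates 1 with Col1a1, Col1a2, Fbln2 and Cd248, whereas Smoc2, Mgp and Islr are blue in wild type replicate 1 and reddest in Hmga2 KO replicate 2.

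All genes were searched for profiles like those of the 3 most variable markers. Genes found in this way follow the marker's own profile by construction, so their shared pattern is no further result. The likeness measure was the root mean square difference of log2 values over the 7 samples, after each profile was centred on its mean. Nearest to Pdgfra were Lgalsl (0.22), Nudt6 (0.27) and Cd248 (0.30), where the median gene lay at 0.79. Heph (0.39), Eya2 (0.41) and Pcsk1 (0.43) were nearest to Smoc2, with the median gene at 0.99. For Islr the nearest were Ramp3 (0.17), Prickle1 (0.17) and Fam181b (0.21), with the median gene at 0.56. Of these 9 genes, Cd248 alone was on the fibroblast list. All profiles come from the same 7 arrays, and a close profile over so few samples is a description.

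**Figure D4:**
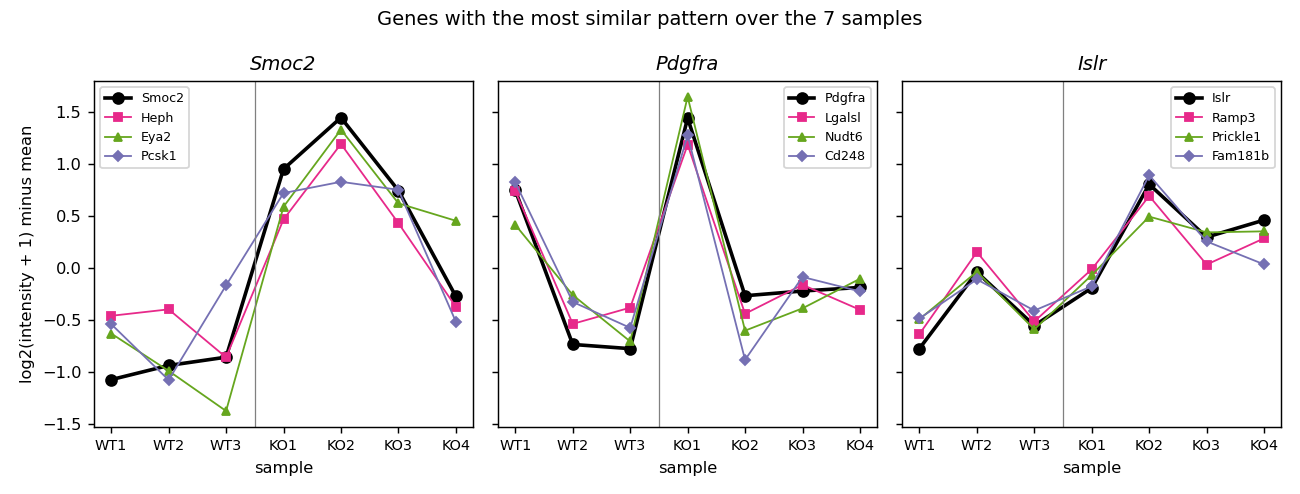
Centred log2(intensity + 1) of Smoc2, Pdgfra and Islr (black) and of the 3 genes nearest to each, in the 3 wild type (WT) and 4 Hmga2 KO (KO) samples. The Pdgfra group peaks in both replicates 1, and the Smoc2 and Islr groups peak in Hmga2 KO replicate 2. The genes were picked for likeness to the marker, so the shared peaks follow from that choice.

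Markers of other cell types were read in the same arrays. The 13 myogenic genes summed to 92262 to 96913 in wild type and 78904 to 96925 in Hmga2 KO samples, and 12 of them were bright. The brightest was Myog, a factor of early differentiation, and limma called 0 of the 13 (3 at an unadjusted p under 0.05). Of the 15 genes of terminal muscle differentiation, led by the myosin light chain gene Mylpf, 14 were bright. All 15 were lower on average in Hmga2 KO, with a median difference of -0.63. None was called by limma, 8 had an unadjusted p under 0.05, and 4 did not overlap between the genotypes, beside 9.29% of genes in this direction. Their sum was 83162 to 117525 in wild type samples and 40676 to 96143 in Hmga2 KO samples. It was lowest in Hmga2 KO replicate 1, where Pdgfra, Col1a2 and Cd34 were highest, and among Hmga2 KO samples it was highest in replicate 2, where Mgp, Islr and Smoc2 were highest. The part of differentiation in the values of the markers was not tested.

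Markers of vessels and blood were dim. Of 12 endothelial genes 10 stayed under 112 and 2 (Tek and Robo4) at background, with Egfl7 alone bright. Their sum was 1097 to 1142 in wild type and 954 to 1117 in Hmga2 KO samples. Of 13 measured leukocyte genes 6 stayed under 112 and Laptm5 alone was bright, and the sums were 1469 to 1724 and 1339 to 1878. Ptprc, which defines leukocytes, lay between 58.5 and 74.7. The 6 measured Schwann cell genes, of which Gfra3 was bright, summed to 777 to 841 and 769 to 875.

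The 10 smooth muscle and pericyte genes gave more, with 6 bright and Acta2 the brightest, which differentiating myoblasts also express. They summed to 21927 to 29775 in wild type and 24151 to 34693 in Hmga2 KO samples. The pericyte gene Rgs5 read 3078, 6701 and 949 against 9508, 10110, 11000 and 5946, so it was low in wild type replicates 1 and 3. The other genes of pericytes went in different directions. Mcam was higher on average (0.65, SE 0.26) with overlap. Abcc9, which encodes a potassium channel subunit, was lower in every Hmga2 KO sample, at 816, 900 and 874 against 236, 752, 385 and 490 (-1.01, SE 0.31), and Cspg4 (0.02, SE 0.12), Pdgfrb (-0.03, SE 0.13) and Kcnj8 (0.09, SE 0.11) differed by less than their error. The 8 tendon genes, of which 2 were bright (Mkx, the brighter on the mean of the 7 samples, and Scx) and Kera was at background, summed to 1641 to 2028 and 1717 to 2187. The 8 measured adipocyte genes summed to 2328 to 2534 and 2444 to 3187. The brightest, on the mean of the 7 samples, was Cebpa, a transcription factor gene of fat cell differentiation, which read 852, 914 and 769 against 1392, 1051, 1530 and 1151, without overlap (0.59, SE 0.14), while the fat cell hormone gene Adipoq lay between 49.4 and 60.2. Limma called 0 genes in any of these 6 lists. At an unadjusted p under 0.05 there were 3 in the smooth muscle and pericyte list, 2 in each of the tendon and adipocyte lists and 0 in the other lists of this group. Over all 45037 probe sets there were 5236. The part of these cell types in the values of Mgp, Smoc2 and Islr was not tested.

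**Figure D5:**
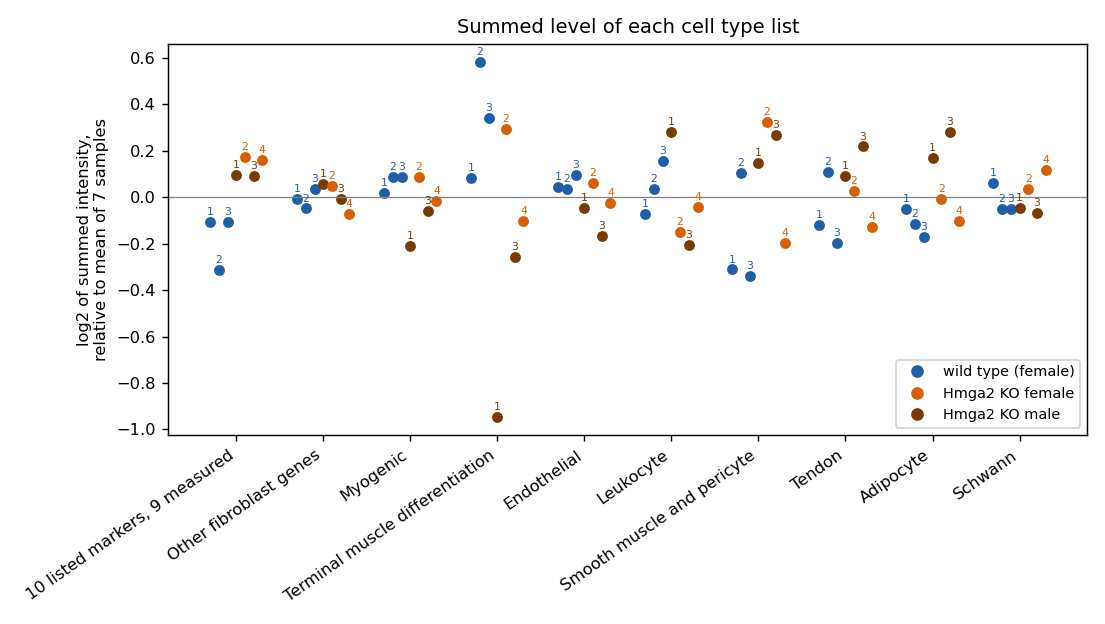
Summed intensity of each cell type list, as log2 relative to the mean of the 7 samples, 1 point per sample with its replicate number. The 9 measured markers sum higher in all 4 Hmga2 KO samples, the other fibroblast genes differ little, and terminal muscle differentiation is lowest in Hmga2 KO replicate 1. The markers were chosen in view of their genotype differences, and Tcf7l2, Mgp, Gsn and Islr contribute most of their sum.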

How the data were processed

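Total RNA of 7 myoblast samples was labelled with biotin and hybridised to Affymetrix mouse arrays, per the labels' protocols. The authors deposited 1 intensity per probe set and sample on a linear scale, and every array shares a median intensity of 150. The sources used here do not state how probes were summarized or background was corrected. The table holds 45101 probe sets, of which 64 controls were set aside. The platform annotation paired 34945 of the others with 1 gene, 932 with several and 9160 with none. Only probe sets with 1 gene were named, and the probe set of highest mean stood for its gene.

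Intensities were taken to log2(intensity + 1) without further normalization. Genotypes (all 7 samples, no covariate) and sexes of Hmga2 KO (3 groups) were compared over 45037 probe sets by linear models with moderated variances (limma 3.58.1, R 4.3.3). P-values were adjusted by Benjamini-Hochberg, with a threshold of 0.05. Figures and tables were made with Python 3.11.15. The fit was tested on simulated data.

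The markers and the gene lists were chosen with earlier results of these data known. Every marker is named, with the 4 widest differences in each direction among fibroblast list genes above 58.2 in all samples, the brightest gene and genes at background of each other list, and the 3 nearest profiles of the 3 most variable markers. Other genes were named after their values were seen. The number of arrays limits the precision. Alternatives tried were a sex term, the 5 females by themselves, the replicate block, quantile normalization, a pseudocount of 16, leaving out each sample, 1 probe set per gene, a filter on dim probe sets, a trended and robust prior, and other limits of brightness.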

Additional observations from a re-analysis of the deposited data

Results flagged for a closer look

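In 6 cases 1 of the 4 Hmga2 KO samples stood apart from the rest of its group, its gap to the nearest of them, as a share of the group's range of intensities on the linear scale, being above Dixon's 95% critical value for 4 samples. For Pdgfra this was Hmga2 KO replicate 1, with a share of 0.975 on 1421917_at and 0.852 on 1438946_at. Replicate 1 also stood apart for Cd34 (0.953), Col1a2 (0.857) and Fbln2 (0.845), and replicate 2 for Adam12 (0.929). On the log2 scale the shares were 0.953 and 0.834 for Pdgfra, 0.887 for Cd34 and 0.919 for Adam12, all still above the critical value, but 0.567 for Col1a2 and 0.683 for Fbln2, both under it. For normally distributed values chance alone gives about 1 in 20 such groups, and the 6 were among 21 marker probe sets (2) and 39 other fibroblast genes (4). Both marker cases were the same gene in the same sample. The share over all probe sets was not counted, so nothing is read from these counts.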

How the results depend on the processing

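The count of probe sets called between the genotypes was 8. It was 5 with 1 probe set per gene and 13 with a trended and robust prior. With the replicate block it was 84, 1 of them a marker (Smoc2, 1415935_at). Same-numbered samples of the genotypes did not deviate together throughout (correlations of 0.26, 0.34 and -0.18). Wild type replicates 1 and 2 but not 3 correlated best with their own number. So few correlations cannot tell whether the numbers pair the samples. Leaving out 1 sample gave 4 to 34, with 5 without wild type replicate 1, 4 without wild type replicate 3 and 34 without Hmga2 KO replicate 2. Without Hmga2 KO replicate 4 the count stayed at 8, with the same Smoc2 probe set called. No wild type sample has the number 4, so the replicate block also takes that sample out of the difference. The Smoc2 difference was 2.00 in both settings, so these calls are not separate. Between the sexes of Hmga2 KO 23 probe sets were called, 7 with 1 probe set per gene, 13 with the filter on dim probe sets and 17 to 26 with 1 sample left out. With the olfactory ceiling 6 marker probe sets were at background and 4 intermediate. With the 75th percentile of the array as the limit 7 were bright. Leaving out 1 sample turned the sex difference of Thy1 (-0.59 to 0.16), Smoc2 (-0.60 to 1.12), Tcf7l2 (-0.15 to 0.18) and Dcn (-0.15 to 0.23), with Thy1 at 0.16 without Hmga2 KO replicate 2, Smoc2 at -0.60 without replicate 4, Tcf7l2 at -0.01 and -0.15 without replicates 1 and 2, and Dcn at -0.10 and -0.15 without replicates 3 and 4. None of these was called. The genotype differences of the 21 probe sets had 273 values under alternatives, 35 of them with the other sign. All lay within 1 SD of the values given, the SD being that of samples pooled within the genotypes. Leaving out 1 sample cannot move a difference by that much, so nothing is read from this limit. The probe sets that changed sign were those of Gsn and Lum, the second of Dcn (1449368_at) and 2 of Tcf7l2. The lack of detection calls limits what can be said of markers under 112.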

Other observations

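Hmga2 KO replicate 2 combined the highest level of 5 markers with very low type I collagen transcripts. It was the highest of the 7 samples for Thy1, Islr, Mgp, Smoc2 and Dcn. Its Dcn lay under 112 and led Hmga2 KO replicate 3 by little (82.5 beside 81.8). The same sample was the lowest of the 7 for Col1a1 (69.0, with the other samples at 552 to 2891) and Col1a2 (101, with the others at 157 to 1921). Of the 39 other fibroblast genes it was the lowest sample for 10 (25.6%), against 7.78% of all genes, and the highest for 6 (15.4%), against 9.43%. Its Col3a1, a further fibrillar collagen gene, was 8367, inside the range of the other samples (6483 to 9330). In the same sample the myogenic factor gene Myf5 read 4885, with 1408 to 2478 in the others. The labels of this sample give a pair of different animal numbers. These samples and genes were picked out after their values were seen, and no test was made.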
